A study of Mus musculus with 5 samples.

Results

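The genes described here encode the enzymes that conjugate or hydrolyse drugs, dietary compounds and steroids, and the pumps that return them to the gut lumen. They are all rows of the deposited count table whose symbols begin with Gsta, Gstk, Gstm, Gsto, Gstp, Gstt, Gstz, Mgst, Ugt1, Ugt2, Sult, Ces1 or Ces2, without names in -ps, together with Abcb1a, Abcb1b and Abcg2. That gave 54 of 19198 rows, in 14 families. The rule uses symbols alone, but it was set with earlier results of these data known. RNA was sequenced from small intestine of 5 mice, after removal of ribosomal RNA. The Cre-positive group held 2 Math1Cre*PR mice with a floxed Chrm4 gene (mAchR4 fl/fl in the labels), which encodes the M4 muscarinic acetylcholine receptor, while 3 Cre-negative littermates were floxed but lacked the transgene. Both groups were gavaged with RU486 at 10 mg/kg on each of 4 days. Ages are not given in the labels. Math1 is the transcription factor of the intestinal secretory lineage, and Cre*PR is a recombinase fused to a progesterone receptor domain that RU486 switches on. Cre is therefore made in cells that express Math1, while most epithelial cells of a villus are absorptive enterocytes. No Cre-positive mouse with unfloxed Chrm4 was in the series, so what Cre activity does by itself and what targeting Chrm4 does cannot be told apart. All mice had received RU486, itself known to activate the pregnane X receptor that regulates several of these genes, so no level here is a baseline without the drug.

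Conjugation makes lipophilic compounds soluble enough to be excreted. Carboxylesterases cut ester and amide bonds. UDP-glucuronosyltransferases attach glucuronic acid, sulfotransferases attach sulfate, and glutathione transferases attach glutathione. Enterocytes are known to express members of each family, and the brush border pumps P-glycoprotein (Abcb1a and Abcb1b in mice) and Bcrp (Abcg2) export drugs and conjugates. Several members sit in tandem gene clusters. On GRCm38, the 7 Gstm genes spanned chromosome 3 from 107895821 to 108044894. The 4 Ces1 genes lay on chromosome 8 from 93166068 to 93337308, and the 6 Ces2 genes from 104734003 to 104969537. The 7 Ugt1a rows shared their downstream exons at one locus on chromosome 1, from 88070800 to 88220002 (exons, plus strand).

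Promoter sequences are given for Ugt2a3 and Gstm3, the tested members whose levels ranged most among the mice. Each is the 250 bases before the RefSeq gene start on GRCm38.p6, read 5′ to 3′ on the gene's strand. The windows are chr5:87337196-87337445 (minus) for Ugt2a3 and chr3:107969175-107969424 (minus) for Gstm3. Capitals mark matches, on either strand, to the motifs named in the next paragraph.
Ugt2a3: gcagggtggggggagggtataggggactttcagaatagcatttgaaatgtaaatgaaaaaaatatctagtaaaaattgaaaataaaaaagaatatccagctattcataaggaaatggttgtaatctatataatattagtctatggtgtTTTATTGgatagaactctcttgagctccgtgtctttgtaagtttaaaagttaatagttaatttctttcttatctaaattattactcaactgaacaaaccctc
Gstm3: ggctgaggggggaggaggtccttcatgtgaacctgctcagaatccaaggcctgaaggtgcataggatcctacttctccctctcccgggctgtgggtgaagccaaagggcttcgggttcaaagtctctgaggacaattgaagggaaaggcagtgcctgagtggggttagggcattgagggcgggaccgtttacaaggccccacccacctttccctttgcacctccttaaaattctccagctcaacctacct

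RefSeq gave promoters for 48 of the 54 members, and a gene was counted when any of its listed starts held the motif on either strand. The antioxidant response core, TGACNNNGC, was found before Gsta3, Gstm5, Gstm7 and Mgst1, which is 4 of 48 members (8.33%) against 11.5% of 27025 genes. The CDX2 core, TTTATNG, was found before Ces1g, Gstm6 and Ugt2a3, or 6.25% against 11.3%. The dioxin response core GCGTG was found before 9 members (18.8% against 30.9%) and the TATA box, TATAAA, before 4 (8.33% against 14.3%). The HNF4 core CAAAGTCCA was found before 0 members and before 0.451% of all genes. In Gstm3 none of these 5 matched. A further motif searched is not reported here, so the shares given do not stand for all motifs searched. These matches are letters in a window and do not show binding.

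The libraries held between 4681119 and 6618204 estimated counts, and the members took 0.303% and 0.413% of them in Cre-positive mice 1 and 2, against 0.316%, 0.256% and 0.473% in Cre-negative mice 1, 2 and 3. Chrm4 itself was scarce, with 13 and 5 counts in the libraries labelled Cre-positive 1 and 2 and 4, 20 and 4 counts in those labelled Cre-negative 1, 2 and 3, so its level does not separate the genotypes. The 5 libraries differed in markers of position along the small intestine. Lct, the lactase gene that is highest in the upper gut, stood at 3.47 and 629 CPM (counts scaled to library size with TMM factors) in Cre-positive mice 1 and 2, against 258, 15.7 and 877 CPM in Cre-negative mice 1, 2 and 3. Slc10a2, the ileal bile acid transporter gene, stood at 806 and 45.7 CPM in Cre-positive mice 1 and 2, against 217, 375 and 6.49 CPM in the Cre-negative mice. Not every marker of position ran this way. The proximal marker Slc40a1 had 233 and 25.1 CPM in Cre-positive mice, against 19.3, 96.3 and 8.60 CPM in Cre-negative mice. The distal marker Cubn had 879 and 1583 CPM in Cre-positive mice, against 2012, 552 and 657 CPM in Cre-negative mice. Amn, also distal, had 18.5 and 53.2 CPM in Cre-positive mice, against 46.0, 26.6 and 38.9 CPM in Cre-negative mice. A region score (mean log2 level of 6 distal markers minus that of 6 proximal ones) was 4.94 and 1.34 in Cre-positive mice 1 and 2, against 2.53, 3.31 and -0.82 in Cre-negative mice 1, 2 and 3. The ranges of the groups overlapped, and the labels speak of whole small intestine and name no stretch of it. Epithelial markers were present in every library. Summed over 10 genes they reached 5293 and 6481 CPM in Cre-positive mice and 4628, 4834 and 5160 CPM in Cre-negative mice, without overlap. Smooth muscle markers summed to 1389 and 1637 CPM in Cre-positive mice and 4272, 2144 and 1642 CPM in Cre-negative mice, and goblet markers to 5061 and 2272 against 571, 990 and 1358 CPM. Immune markers summed to 554 CPM in Cre-positive 1 and to 35.2 to 49.6 CPM in the other 4 mice. Fewer cells of a type and less RNA per cell cannot be told apart in such tissue RNA. Of 7 liver genes fixed for the check, Cyp2e1 alone had a row in the table, at 0.738 to 3.66 CPM, and of 6 pancreas genes Cela1 alone, at 1.24 to 2.58 CPM. Region and epithelium were used as covariates in further fits. Beyond these, the part that region, enterocyte, muscle, goblet and immune content had in the values below was not tested.

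No member was called higher or lower in Cre-positive intestine. Of 54 members, 46 passed the filter on low counts and were tested with edgeR's quasi-likelihood test, and 0 were called in either direction, as for all 14352 genes tested (0.0% higher and 0.0% lower, with 0.977 the lowest adjusted p by Benjamini-Hochberg). Without adjustment, p was under 0.05 for 0 members with a higher level and for 2 with a lower one, Abcb1b and Gstm1. All genes gave 1.6% higher and 1.78% lower, or 3.38% in both directions. DESeq2 and limma-voom also called 0 members. DESeq2 called 17 higher and 7 lower genes elsewhere in the table (0.11% and 0.0452% of the genes it gave an adjusted p). The groups did not overlap for 2 members, Gsta1 and Gstm5, both lower in Cre-positive mice. That is 4.35% of members tested, against 10.2% of all genes lower, 7.89% higher and 18.0% in both directions. Log2 fold changes were negative for 31 of 46 members and positive for 15, with a median of -0.22. All genes tested had 54.5% negative and a median of -0.04. That split moved in both directions with 1 mouse or 1 covariate. Without Cre-positive 1, 25 of 49 members were positive, and without Cre-negative 3, 26 of 44. Without Cre-positive 2, 11 of 50 were positive (median -0.62), and without Cre-negative 2, 10 of 45 (median -0.40). With the region score as a covariate 23 of 46 were positive and the median was 0.02. With the epithelium score 14 of 46 were positive and the median was -0.65, but that score did not overlap between the groups and barely separates from genotype.

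**Figure D1:**
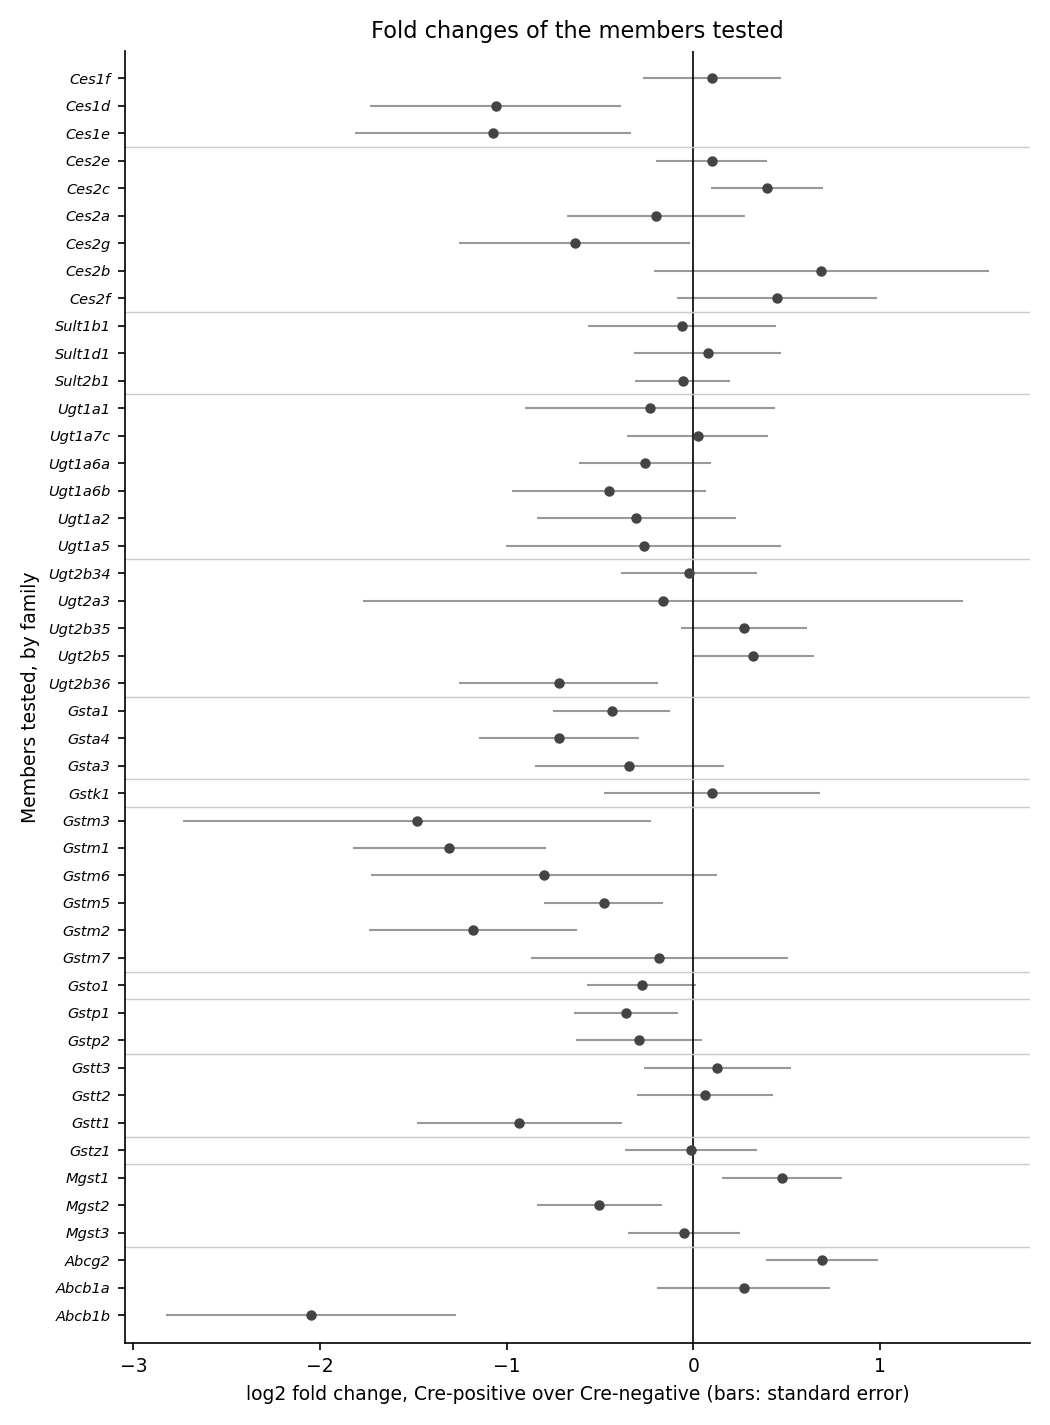
Log2 fold changes (x axis) of the 46 members tested (y axis, grouped by family and ordered within a family by mean level), with bars for the standard error. Points run from -2.05 for Abcb1b to 0.69 for Abcg2, and none passed the test over all genes (lowest adjusted p = 0.977).

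Summed by family, the levels of the groups overlapped in 13 of 14 families, and Gsta sums were lower in both Cre-positive mice. With 2 against 3 mice no family could pass a threshold of 0.05. Exact permutation tests over the 10 splits of the mice gave two-sided p between 0.2 and 1 for the 14 families (Benjamini-Hochberg adjusted p = 1 for each), where 0.1 is the smallest p that this design allows. All members together summed to 2924 and 4231 CPM in Cre-positive mice 1 and 2, against 3528, 2507 and 4377 CPM in Cre-negative mice 1, 2 and 3. Cre-positive mice (n = 2) averaged 3577 ± 924 CPM and Cre-negative mice (n = 3) 3471 ± 936 CPM (mean ± SD; exact p = 1). Family sums do not depend on how shared reads were divided among the rows of a family. They can depend on how reads shared with genes outside it were placed. Gsta1 shares stretches with Gm3776 and Gsta2, and Gstp1 with Gstp-ps. The Gstp-ps row averaged 46.3 CPM over all mice, and the Gstp sum 48.8 CPM.

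**Figure D2:**
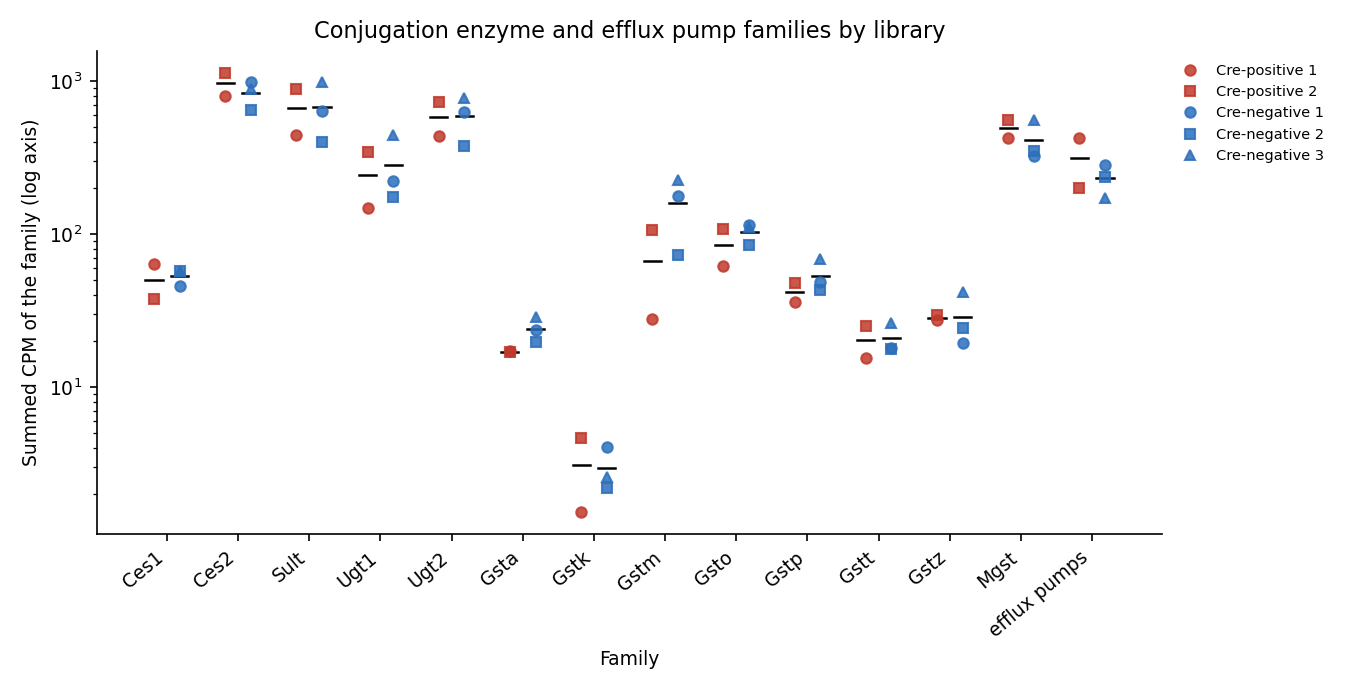
Summed CPM per library (log axis) for each of the 14 families, with Cre-positive mice in red, left of Cre-negative mice in blue, and black bars for group means. The groups overlap in every family except Gsta, whose sums were 17.3 and 16.9 CPM in Cre-positive mice, against 23.6, 19.7 and 28.7 CPM in Cre-negative mice.

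Per kilobase of merged exon length (GENCODE M21), the most abundant members came from different families. Ces2c averaged 168 CPM per kb over the 5 mice, Mgst1 161, Ces2e 157, Sult1b1 153 and Ugt2b34 124 CPM per kb. Next were Sult1d1 at 89.4 and Ugt1a1 at 53.6 CPM per kb. In single mice Ces2c ran from 104 to 209, Mgst1 from 104 to 212, Ces2e from 121 to 206 and Sult1b1 from 90.0 to 243 CPM per kb, so the order among the first 4 was not separated by their spread. At the low end, 8 members did not pass the filter and have no test. These were Ces1g, Gstm4, Gstp3, Sult1a1, Sult1c2, Sult6b1, Ugt1a9 and Ugt2b1, at a mean of at most 1.95 CPM each.

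Among the hydrolases, the Ces2 family, the main carboxylesterases of gut epithelium, held the larger sums. Ces2 sums were 795 and 1132 CPM in Cre-positive mice 1 and 2, against 984, 645 and 886 CPM in Cre-negative mice 1, 2 and 3 (exact p = 0.5). Ces2c stood at 425 and 480 CPM in Cre-positive mice, against 450, 240 and 341 CPM in Cre-negative mice. Both Cre-positive values lay within or just above the Cre-negative range, and its log2 fold change was 0.40 ± 0.30 (SE; edgeR adjusted p = 0.977). Ces2e had 328 and 557 CPM in Cre-positive mice, against 423, 344 and 473 CPM in Cre-negative mice. Ces2a had 28.3 and 73.4 CPM in Cre-positive mice, against 85.2, 52.2 and 38.6 CPM in Cre-negative mice, so its groups overlapped widely. Reads of these genes are hard to place: 36.1% of the 50-base stretches of Ces2c transcripts occur in other genes, first Ces2d-ps, and 17.3% of those of Ces2a. Ces1 sums were smaller, at 63.4 and 37.5 CPM in Cre-positive mice, against 45.6, 57.0 and 57.6 CPM in Cre-negative mice. Ces1f made up 92.4% and 82.6% of the Ces1 sum in Cre-positive mice 1 and 2, against 60.7%, 88.7% and 81.1% in Cre-negative mice 1, 2 and 3. In Cre-negative 1 the remainder was largely Ces1d, at 12.6 CPM there and 2.94 to 4.22 CPM in the other 4 mice.

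The sulfotransferases were represented mainly by Sult1b1 and Sult1d1, neighbours on chromosome 5 (minus strand, 87513339 to 87538195 and 87554645 to 87569027), which sulfate phenols, thyroid hormone and catechols. Sult1b1 stood at 250.3 and 579 CPM in Cre-positive mice 1 and 2, against 369, 252 and 675 CPM in Cre-negative mice 1, 2 and 3. Sult1d1 stood at 169.6 and 284 CPM in Cre-positive mice, against 243, 123 and 279.5 CPM in Cre-negative mice. In both genes Cre-positive 2 and Cre-negative 3 were the high libraries and Cre-positive 1 and Cre-negative 2 the low ones. Their log2 fold changes were -0.06 ± 0.50 and 0.08 ± 0.39. Sult2b1, which sulfates cholesterol and other hydroxysteroids, was steadier, at 19.8 and 26.5 CPM in Cre-positive mice, against 21.7, 23.6 and 26.9 CPM in Cre-negative mice.

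The glucuronosyltransferases differed among the mice of each group, and the groups overlapped in the Ugt1 and Ugt2 sums. Ugt2b34 took 87.9% to 92.9% of the Ugt2 sum in every library. It stood at 396 and 662 CPM in Cre-positive mice 1 and 2, against 584, 348 and 680.3 CPM in Cre-negative mice 1, 2 and 3, with a log2 fold change of -0.02 ± 0.36. Ugt2a3 had the widest range of the members tested. Cre-positive mice 1 and 2 gave 2 and 258 counts (0.385 and 39.9 CPM), against 49, 12 and 332 counts (11.7, 2.21 and 53.9 CPM) for Cre-negative mice 1, 2 and 3. The highest library was 140-fold above the lowest, the groups overlapped, and the log2 fold change was -0.16 ± 1.61. It was 0.84 with Cre-positive 1 left out, -5.77 with Cre-positive 2 left out and 1.61 with Cre-negative 3 left out. The order of the 5 libraries for Ugt2a3 was that of Lct.

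The Ugt1 locus makes each enzyme from its own first exon joined to shared exons, so reads of the shared part cannot be assigned to 1 enzyme. Between 52.1% and 79.8% of the 50-base stretches of each Ugt1a row occur in other genes, and all 7 rows held values that were not whole in at least 1 library. The locus sum was 149 and 341 CPM in Cre-positive mice 1 and 2, against 223, 175 and 445 CPM in Cre-negative mice 1, 2 and 3 (exact p = 0.8). Ugt1a1, the bilirubin-conjugating enzyme, held 35.4% and 47.8% of that sum in Cre-positive mice 1 and 2, against 39.0%, 36.6% and 51.5% in Cre-negative mice 1, 2 and 3. Its share was thus highest in the 2 mice with the largest sums, one of each genotype. Ugt1a1 stood at 52.6 and 163 CPM in Cre-positive mice, against 86.8, 64.2 and 229 CPM in Cre-negative mice (log2 fold change -0.23 ± 0.67). Ugt1a7c was next, at 40.8 and 94.1 CPM in Cre-positive mice, against 57.3, 57.2 and 84.8 CPM in Cre-negative mice. Ugt1a6a had 26.8 and 25.8 CPM in Cre-positive mice, against 34.1, 18.5 and 41.9 CPM in Cre-negative mice. Ugt1a9 was listed at 0 in 3 libraries after rounding.

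Among the glutathione transferases, the mu class (Gstm) had the largest log2 ratio of family means, with groups that overlapped. Gstm enzymes conjugate electrophiles such as lipid peroxidation products and epoxides. Their sum was 27.9 and 106 CPM in Cre-positive mice 1 and 2, against 178, 72.5 and 226 CPM in Cre-negative mice 1, 2 and 3. Cre-positive mice (n = 2) averaged 67.2 ± 55.5 CPM and Cre-negative mice (n = 3) 159 ± 78.3 CPM (mean ± SD), a log2 ratio of -1.24 (exact permutation test, two-sided p = 0.3). Cre-positive 2 lay above Cre-negative 2, so the groups overlapped. The log2 ratio was -0.54 with Cre-positive 1 left out, -2.46 with Cre-positive 2 left out and -0.85 with Cre-negative 3 left out. The log2 fold change was negative for 6 of the 6 Gstm genes tested, from -0.18 for Gstm7 to -1.48 for Gstm3, and 0 passed the test. That count changed with the setting: Gstm7 was 0.37 with the region score as a covariate and 0.29 with Cre-positive 1 left out, where Gstm6 was 0.057.

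Gstm1 stood at 15.6 and 34.2 CPM (81 and 221 counts) in Cre-positive mice 1 and 2, against 84.5, 30.4 and 70.9 CPM in Cre-negative mice 1, 2 and 3. Cre-positive 1 was the low library, and Cre-positive 2 lay just above Cre-negative 2. Its log2 fold change was -1.31 ± 0.52 (edgeR unadjusted p = 0.0393, adjusted p = 0.977), with -0.81 with Cre-positive 1 left out and -1.94 with Cre-positive 2 left out. Gstm3 had 6 and 290 counts in Cre-positive mice 1 and 2, against 263, 132 and 659 counts in Cre-negative mice 1, 2 and 3. In CPM that was 1.16 and 44.9 in Cre-positive mice and 62.8, 24.4 and 107 in Cre-negative mice, a 92.5-fold range between single libraries. Gstm3 was nearly missing from Cre-positive 1, where it made up 4.14% of the mu class sum, against 42.2% in Cre-positive 2 and 33.6% to 47.4% in the Cre-negative mice. The log2 fold change of Gstm3 was -1.48 ± 1.25, but -0.49 with Cre-positive 1 left out and -5.74 with Cre-positive 2 left out. Gstm6 followed a like order, at 1.73 and 15.6 CPM in Cre-positive mice, against 14.1, 5.54 and 26.3 CPM in Cre-negative mice. Gstm5 was lower in both Cre-positive mice, at 5.78 and 5.26 CPM, against 8.35, 6.83 and 7.95 CPM in Cre-negative mice, with a log2 fold change of -0.48 ± 0.32 that did not pass the test. Of the 50-base stretches of Gstm3 transcripts 28.8% occur in other genes, first Gm8834 and Gstm2-ps1, and of those of Gstm1 18.9%.

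The other cytosolic classes differed less. Gsta1, an alpha class enzyme that reduces lipid hydroperoxides, stood at 11.0 and 9.29 CPM in Cre-positive mice, against 11.7, 11.8 and 17.5 CPM in Cre-negative mice. The groups did not overlap, and its log2 fold change of -0.44 ± 0.31 did not pass the test (edgeR adjusted p = 0.977). Of its 50-base stretches 90.5% occur in other genes, first Gm3776 and Gsta2, so this row may hold reads of its near copies. Gsta4, which conjugates hydroxynonenal, had a log2 fold change of -0.72 ± 0.43. Gstp1, the pi class enzyme, had 25.2 and 34.5 CPM in Cre-positive mice, against 36.3, 31.0 and 47.9 CPM in Cre-negative mice, and 33.7% of its 50-base stretches are shared with Gstp2 and Gstp-ps. The pseudogene row Gstp-ps, left out of the family by its name, held 131 and 275 counts in Cre-positive mice and 259, 271 and 321 counts in Cre-negative mice. Gsto1, an omega class enzyme that acts as a thiol transferase, had 61.7 and 109 CPM in Cre-positive mice, against 115, 84.7 and 110 CPM in Cre-negative mice. Gstt3 of the theta class and Gstz1, which isomerises maleylacetoacetate in tyrosine breakdown, had log2 fold changes of 0.13 ± 0.39 and -0.01 ± 0.35. Gstt1, also of the theta class, had -0.93 ± 0.55.

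The microsomal transferases sit in membranes and also act as peroxidases. Mgst1 stood at 354 and 427 CPM in Cre-positive mice 1 and 2, against 209, 235 and 399 CPM in Cre-negative mice 1, 2 and 3. Both Cre-positive libraries were above 2 of the 3 Cre-negative ones, and the log2 fold change of 0.47 ± 0.32 did not pass the test. Mgst2, which can also make leukotriene C4, had 45.3 and 90.2 CPM in Cre-positive mice, against 87.8, 82.3 and 118 CPM in Cre-negative mice, a log2 fold change of -0.50 ± 0.34. Mgst3 had 23.7 and 39.6 CPM in Cre-positive mice, against 27.4, 32.1 and 38.8 CPM in Cre-negative mice. Mgst1 made up 83.7% and 76.7% of the Mgst sum in Cre-positive mice 1 and 2, against 64.4%, 67.3% and 71.8% in Cre-negative mice 1, 2 and 3. These shares did not overlap between the groups, were looked at after the values were seen and have no test. Levels did not overlap between the groups for 18.0% of all genes tested, so such a separation is common with so few mice.

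The pumps did not move as 1 group. Abcg2, the Bcrp pump, stood at 236 and 126 CPM in Cre-positive mice 1 and 2, against 111, 129 and 96.5 CPM in Cre-negative mice 1, 2 and 3. Cre-positive 1 was the high library and Cre-positive 2 lay inside the Cre-negative range. Its log2 fold change of 0.69 ± 0.30 (edgeR unadjusted p = 0.0541, adjusted p = 0.977) was 0.20 with Cre-positive 1 left out and 1.11 with Cre-positive 2 left out. Abcb1a, the main intestinal P-glycoprotein, had 185 and 70.6 CPM in Cre-positive mice, against 152, 93.4 and 72.7 CPM in Cre-negative mice. For Abcb1a the log2 fold change was 0.27 ± 0.47, but -0.55 with Cre-positive 1 left out and 0.85 with Cre-positive 2 left out. For Abcb1b, Cre-positive mice 1 and 2 gave 16 and 19 counts (3.08 and 2.94 CPM), against 84, 81 and 18 counts (20.0, 14.9 and 2.92 CPM) for Cre-negative mice 1, 2 and 3. Both Cre-positive mice were therefore at the level of Cre-negative 3, and 2 Cre-negative mice stood above them. Its log2 fold change of -2.05 ± 0.78 (edgeR unadjusted p = 0.0340, adjusted p = 0.977) ran from -2.48 to -1.53 when single mice were left out. Abcb1b values were not whole in 5 of 5 libraries, and 11.6% of its 50-base stretches occur in other genes, first Abcb1a (17.6% for Abcb1a). Abcb1a and Abcb1b lie side by side on chromosome 5 (8660077 to 8748575 and 8798147 to 8866315, both plus strand).

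**Figure D3:**
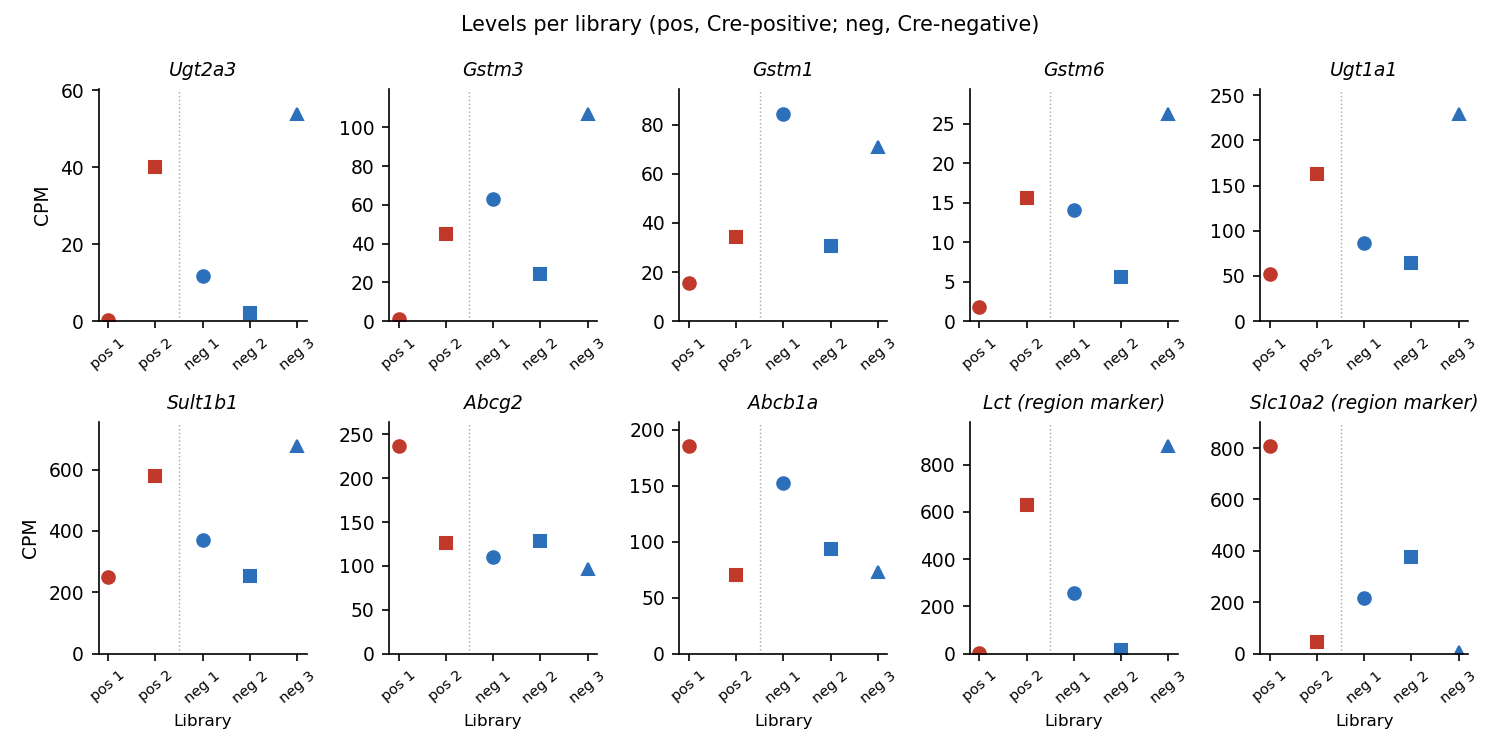
CPM (y axes, each from 0) in each library for 8 members and for the region markers Lct and Slc10a2, with Cre-positive mice (red) left of Cre-negative mice (blue). Ugt2a3 and Sult1b1 were high where Lct was high, in Cre-positive 2 and Cre-negative 3, and Abcg2 was highest where Slc10a2 was highest, in Cre-positive 1. Which trait of the libraries these levels followed was not tested.

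Across the whole set, some libraries were highest or lowest more often than over all genes. Cre-negative 3 was the highest library for 22 of 46 members tested (47.8%), against 17.0% of all genes tested. Cre-positive 1 was the lowest library for 24 of 46 (52.2%), against 29.0% of all genes. Cre-negative 2 was highest for 0 members, against 17.0% of all genes tested. Cre-negative 3 and Cre-positive 1 are the libraries at the ends of the region score, -0.82 and 4.94. They differed in other markers too. Enterocyte markers summed to 17937 and 41416 CPM in Cre-positive mice, against 29851, 21010 and 36545 CPM in Cre-negative mice. Cre-positive 1 was thus lowest there as well, and Cre-positive 2 and Cre-negative 3 were highest. Cre-positive 1 also had the largest immune sum, at 554 CPM. Which of these traits the member levels followed was not tested. The order of the 5 libraries was exactly that of Lct for 8 members (17.4%), namely Gsta3, Gstm6, Gstp2, Mgst2, Sult1b1, Ugt1a1, Ugt1a6b and Ugt2a3, against 2.31% of all genes tested. These counts were made after the values were seen and have no test. Among members with a mean of at least 5 CPM, the median ratio of the highest to the lowest library was 2.30, against 1.75 for all genes tested at that level. The 14 of 46 members tested that ranged over more than 4-fold included Ugt2a3, Gstm3, Gstm6, Gstm1, Abcb1b and Ugt1a1. Some of the 14 had few counts, such as Ces1e and Ces2b, each with 3 to 32 counts per library. The share of all genes with such a range was not counted. With the region score as a covariate, the log2 fold change of Ugt1a1 was 0.42, that of Sult1b1 0.41, that of Ugt2a3 0.90 and that of Abcb1a -0.23, each of the opposite sign. Under the same covariate Gstm1 had -1.06, Abcb1b -2.31 and Abcg2 0.41. With the epithelium score as a covariate instead, Abcb1b had -0.75, Abcb1a 1.75, Gstm3 -3.37, Gstm1 -0.93 and Abcg2 1.07. Both fits called 0 members. Epithelium scores did not overlap between the groups, so that covariate barely separates from genotype.

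**Figure D4:**
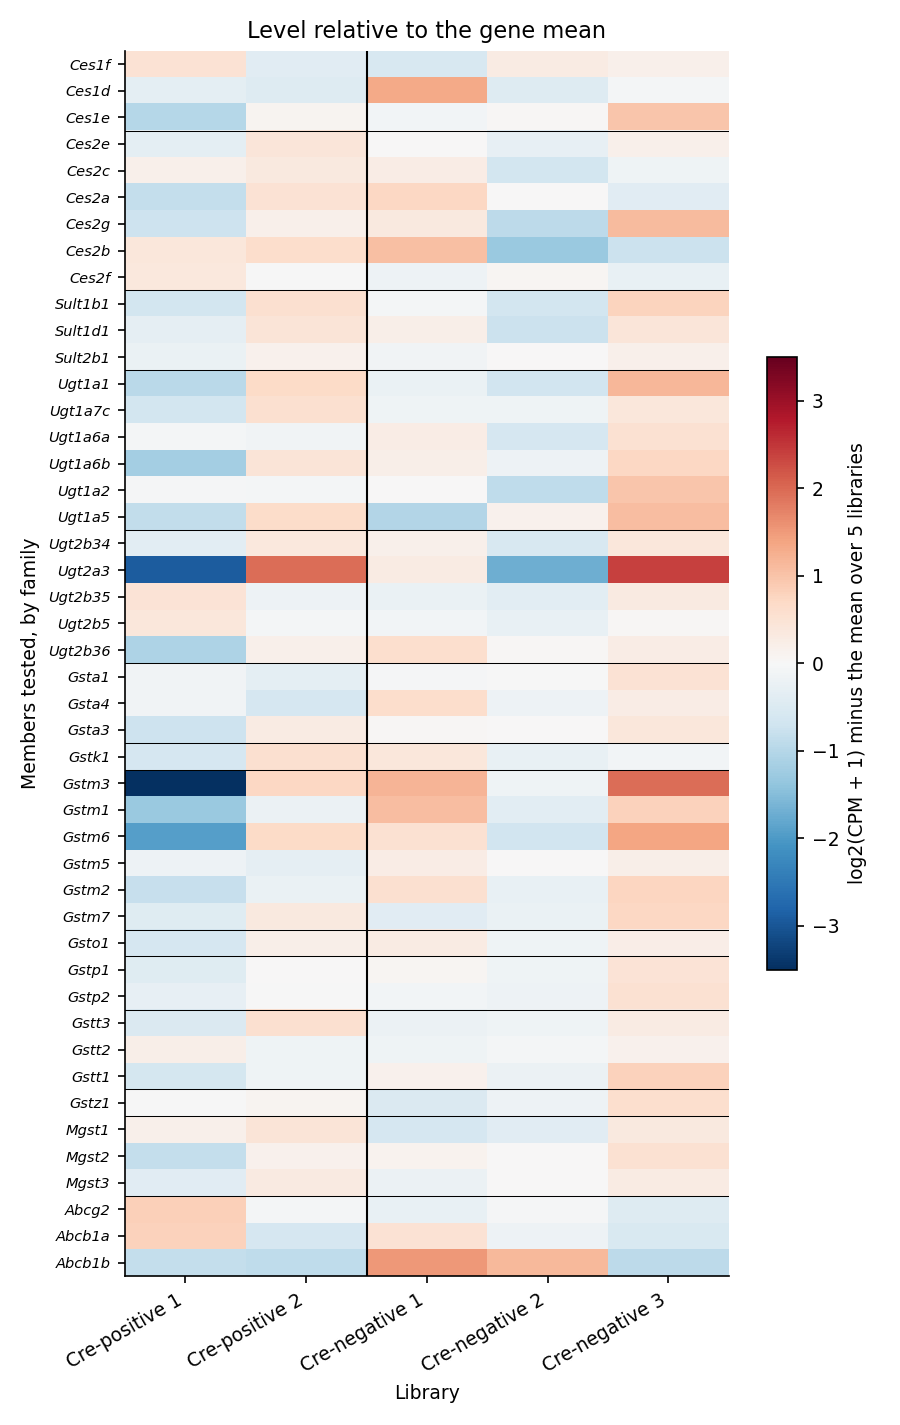
Level of each of the 46 members tested (y axis, by family) in each library (x axis, Cre-positive left of the line), as log2(CPM + 1) minus the gene's mean over the 5 libraries (colour). Cre-positive 1 is mostly blue (lowest for 24 members) and Cre-negative 3 mostly red (highest for 22), while the pumps run the other way in Cre-positive 1 except Abcb1b.

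Other genes of the pathway did not pass the test either. Of 9 genes that supply cofactors, 9 were tested, 4 had a positive and 5 a negative log2 fold change, and 0 were called (median -0.03). Slc7a11, the cystine importer that feeds glutathione synthesis, stood at 17.1 and 1.55 CPM in Cre-positive mice, against 2.39, 2.77 and 1.95 CPM in Cre-negative mice, so its higher mean rested on Cre-positive 1. Papss1, which makes the sulfate donor, had 39.9 and 66.1 CPM in Cre-positive mice, against 42.5, 30.6 and 44.6 CPM in Cre-negative mice. Of 11 Nrf2 targets tested, 3 were positive, 8 negative and 0 called (median -0.11). The lists share genes, so their counts are not separate. Slc7a11, Gclc, Gclm and Gsr are also among the cofactor genes, and Ephx1 among the other conjugating or hydrolysing enzymes below. Me1, the malic enzyme that supplies NADPH, had 34.9 and 123 CPM in Cre-positive mice, against 396, 281 and 92.0 CPM in Cre-negative mice. Its groups overlapped through Cre-negative 3. Of 12 sensors and regulators tested, 5 were positive, 7 negative and 0 called (median -0.12). Nr1h4, the bile acid receptor FXR, had 98.8 and 39.2 CPM in Cre-positive mice, against 24.1, 63.5 and 20.4 CPM in Cre-negative mice.

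Of 8 other ABC transporters tested, 3 were positive, 5 negative and 0 called (median -0.19), and of 7 other conjugating or hydrolysing enzymes 4 were positive and 3 negative (median 0.06). Abcc6 averaged 1.70 ± 1.32 CPM in Cre-positive mice, against 3.94 ± 1.69 CPM in Cre-negative mice, and Abcc4, an exporter of cyclic nucleotides and conjugates, 5.32 ± 3.37 and 2.76 ± 1.43 CPM (SD, n = 2 and n = 3). Tpmt, the thiopurine methyltransferase, averaged 2.84 ± 0.074 CPM in Cre-positive mice, against 3.66 ± 0.65 CPM in Cre-negative mice, without overlap, and Ephx2, an epoxide hydrolase, 32.7 ± 26.6 and 51.3 ± 33.1 CPM. Of 27 cytochrome P450 genes of families 1 to 4 tested, 4 were positive and 23 negative with a median of -0.29, and 0 were called. Over all genes tested 54.5% were negative. With single mice left out, the split was not counted for these P450 genes. Their summed level was 916 and 3386 CPM in Cre-positive mice 1 and 2, against 2665, 1411 and 3710 CPM in Cre-negative mice 1, 2 and 3. As for the conjugation enzymes, Cre-negative 3 and Cre-positive 2 stood highest. The ratio of the highest to the lowest library was 4.05 for the P450 sum and 1.75 for the conjugation enzymes and pumps, a difference that was not tested.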

How the data were processed

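Mice were grouped by the genotype label, and replicates are numbered by accession. The authors deposited 1 table of estimated counts by gene symbol, made with Partek on mm10 per the submitters' processing notes; how reads were aligned, stranded and counted, and on which annotation, was not given in the sources used here. In each library 19.6% to 21.7% of values lay farther than 0.005 from a whole number, and the lowest gene total was 10. Of the members, 21 had such values in at least 1 library. No column was left unused, and 0 rows named no gene. Each library carries its own mouse number, and nothing else is said of separate handling, so p-values measure the spread between these 5 mice.

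Estimated counts were rounded. The test was edgeR 4.0.16 (R 4.3.3): filterByExpr with a minimum count of 10, TMM factors, robust quasi-likelihood fitting on genotype, and Benjamini-Hochberg adjustment at 0.05 over 14352 genes. The filter asks for counts in 2 libraries, so the Cre-positive mice alone can bring a gene past it. Fold changes set Cre-positive over Cre-negative mice, and their standard errors are the fold change over the square root of F. The biological coefficient of variation was 33.1%. DESeq2 1.42.0 and limma 3.58.1 (voom) were alternatives. Coordinates, exon lengths and transcripts came from GENCODE M21 (GRCm38), which matched 54 of 54 members, and promoters from RefSeq (GRCm38.p6). The test was also run on simulated data, with an outcome not reported here. A gene that was not called is not thereby shown to be unchanged.

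Named members are, per family, the 3 with the highest mean of at least 5 CPM, together with the 3 pumps. The 5 with the smallest p in each direction were added, with 2 genes per pathway list. Not all are described. Further members were named after their values were seen, among them Gsta3, Gstm5, Gstm7, Ugt1a2, Ugt1a5, Ugt1a6b and Ugt1a9. The motifs were chosen likewise. One regulator that the rule names and one further motif searched are not reported here, so the motif shares given do not stand for all motifs searched. Members and lists were chosen with earlier results of these data known.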

Additional observations from a re-analysis of the deposited data

How the results depend on the processing

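No member was called under any alternative run. Over all genes, DESeq2 called 17 higher and 7 lower, and edgeR called between 0 and 58 higher and 0 lower when each mouse was left out, with 58 without Cre-positive 2; the cause was not tested. A lone Cre-positive mouse is assumed to vary like the others. The labels do not say which mice shared a litter, so litter could not be fitted and no paired analysis was made.

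Signs of some log2 fold changes turned; the lists cover the members named by rule. With the region score as a covariate this held for Abcb1a (-0.23), Ces1f (-0.058), Gstz1 (0.28), Mgst3 (0.12), Sult1b1 (0.41), Sult2b1 (0.054), Ugt1a1 (0.42), Ugt2a3 (0.90) and Ugt2b34 (0.24), and beyond them for Gstm7 (0.37), Ugt1a2 (0.27) and Ugt1a5 (0.25). With the epithelium score, which barely separates from genotype here since its sums did not overlap, it held for Ces1d (1.21), Ces1f (-0.19), Ces2a (0.19), Ces2e (-0.22), Gsta4 (0.23), Gstt3 (-0.78), Mgst1 (-0.22), Ugt1a6a (0.0061) and Ugt1a7c (-0.92). RLE scaling turned Gstz1 (0.015) and Ugt2b34 (0.0074) and the sums of Gstz (0.020), Sult (0.017) and Ugt2 (0.011). DESeq2 turned Gstz1 (0.018) and Ugt2b34 (0.016), limma-voom Gstz1 (0.047) and Ugt1a7c (-0.069), no filter Gstz1 (0.021) and Ugt2b34 (0.018), and the filter of 5 CPM in 2 libraries Gstz1 (0.012). Log2 ratios of family sums turned relative to the epithelium list for Ces2 (-0.087), Gstk (-0.28), Mgst (-0.0074) and all members (-0.24), and with whole-number rows alone for Ces2 (-0.31), Mgst (-0.37), Sult (0.070) and all members (-0.045); Ugt1 has no such row. Adding pseudogene rows, an alternative chosen after seeing the data, turned no sign. For all of these the cause was not tested.

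Leaving out single mice turned the sign of Abcb1a (-0.55 to 0.85), Ces1f (-0.40 to 0.52), Ces2a (-1.0 to 0.37), Ces2e (-0.30 to 0.46), Gstm6 (-3.09 to 0.057), Gsto1 (-0.70 to 0.11), Gstp2 (-0.43 to 0.036), Gstt3 (-0.52 to 0.61), Gstz1 (-0.20 to 0.42), Mgst3 (-0.43 to 0.30), Sult1b1 (-0.75 to 0.46), Sult1d1 (-0.30 to 0.44), Sult2b1 (-0.24 to 0.17), Ugt1a1 (-1.24 to 0.55), Ugt1a6a (-0.53 to 0.054), Ugt1a7c (-0.67 to 0.53), Ugt2a3 (-5.77 to 1.61), Ugt2b34 (-0.40 to 0.34) and Ugt2b35 (-0.084 to 0.62). Among family sums it turned Ces1 (-0.48 to 0.28), Ces2 (-0.034 to 0.47), Gstk (-0.89 to 0.69), Gsto (-0.70 to 0.11), Gstt (-0.38 to 0.30), Gstz (-0.20 to 0.42), Sult (-0.56 to 0.44), Ugt1 (-0.88 to 0.34), Ugt2 (-0.40 to 0.34), all members (-0.21 to 0.32) and efflux pumps (-0.17 to 0.92). With 2 mice in 1 group, the spread between mice limits what can be detected.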
